A study of Mus musculus with 60 samples.

Results

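The heat shock genes described here are 10 of the 27238 genes in the expression table: the heat shock transcription factor gene Hsf1 and 9 chaperone genes, namely Hspa1a, Hspa1b and Hspa8 (cytosolic HSP70), Hsp90aa1 and Hsp90ab1 (cytosolic HSP90), Hspa5 (HSP70 of the endoplasmic reticulum), and Hspa9, Hspd1 and Hspe1 (HSP70, HSP60 and HSP10 of the mitochondrion). The rule used gene symbols through their Ensembl identifiers and no measured value. Still, the members and the gene lists used below were chosen with earlier results of these data known. All 10 were found in the table.

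Chaperones of these families bind unfolded or newly made proteins, and they release them folded through cycles of ATP hydrolysis that cochaperones steer. Hsf1 is held inactive by chaperones in unstressed cells, and on heat or other protein stress it forms trimers, binds heat shock elements in promoters and drives transcription of chaperone genes. In the mouse, HSP70 transcripts are among the earliest products of zygotic genome activation (ZGA), the start of transcription from the embryo's own genome, and Hsf1 made in the oocyte is needed for development past the first divisions.

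The libraries were amplified cDNA of single mouse embryos, 1 embryo a library, at 6 stages (1 cell, 2 cells, 4 cells, 8 cells, morula and blastula), plus the donor cells, with 3 libraries in each of 20 groups and 60 libraries in all. The in vivo group came from C57BL/6 females mated with DBA2 males and was collected from the mice, so these embryos are BDF1. The NTC group was made by injecting nuclei of BDF1 cumulus cells (CC), the follicle cells that surround the oocyte, into enucleated oocytes of young adult superovulated BDF1 females, and the NTM group by injecting nuclei of serum-starved BDF1 mouse embryonic fibroblasts (MEF), cultured and passaged from midgestation fetuses. NTC and NTM (together NT) embryos shared activation with SrCl2 in cytochalasin B and Scriptaid, a histone deacetylase inhibitor, and then culture in vitro. The in vivo embryos had neither nuclear transfer, nor activation drugs, nor culture. Their oocytes were those of C57BL/6 females, while NT embryos had oocytes of superovulated BDF1 females. These differences cannot be told apart in any NT against in vivo comparison, and the embryos sequenced had been picked by morphology.

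Embryo libraries held 5294167 to 26281509 reads on genes and donor libraries 31558140 to 47830132, as recovered from the deposited values. MEF libraries expressed all 10 fibroblast markers (summed level of 8752 to 11469 RPKM, reads per kilobase of gene scaled to the size of the library), against 4.80 to 6.42 RPKM in CC. The cumulus label was less clear, since the summed cumulus markers were at 533 to 786 RPKM in CC and 498 to 1217 RPKM in MEF, and Cyp19a1, Has2 and Lhcgr were at 0 in every CC library. In vivo 1-cell replicate 1 (9491 genes above 0, against 12187 and 12593 in the other 1-cell embryos) and in vivo morula replicate 1 (64.2% of reads on mitochondrial genome genes, against 30.8% and 29.6%) stood apart from their groups. Some results that rest on them are given with and without them, and others only with them. In vivo 1-cell replicate 1 held 2 reads of Hspa8 and 3 of Hspa5. Transcripts of the mitochondrial genome took 5.68 to 8.87% of reads in in vivo 4-cell embryos, 31.6 to 34.7% in NTC and 29.6 to 40.4% in NTM 4-cell embryos, and 32.1 to 45.0% in in vivo 8-cell embryos, so for members called in NT against in vivo 4-cell embryos, or in vivo between 4 and 8 cells, values with these reads left out (nuclear reads) are given as well.

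All values below are RPKM unless said to be a log2 fold change, which was fitted on log2(RPKM + 1) and understates changes of low genes. Calls rest on limma, fitted over all genes with p-values adjusted by Benjamini-Hochberg: a gene was called below 0.05 if its fitted difference was also 1 or larger on the log2 scale. RPKM is a share of the library, so less of a transcript per embryo and more of other RNA cannot be told apart, nor can fewer cells and less RNA per cell. The p-values measure the spread between these 3 embryos a group, and for the donor cells, prepared as 3 biological replicates, the sources used here do not say whether these came from separate animals.

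**Figure D1:**
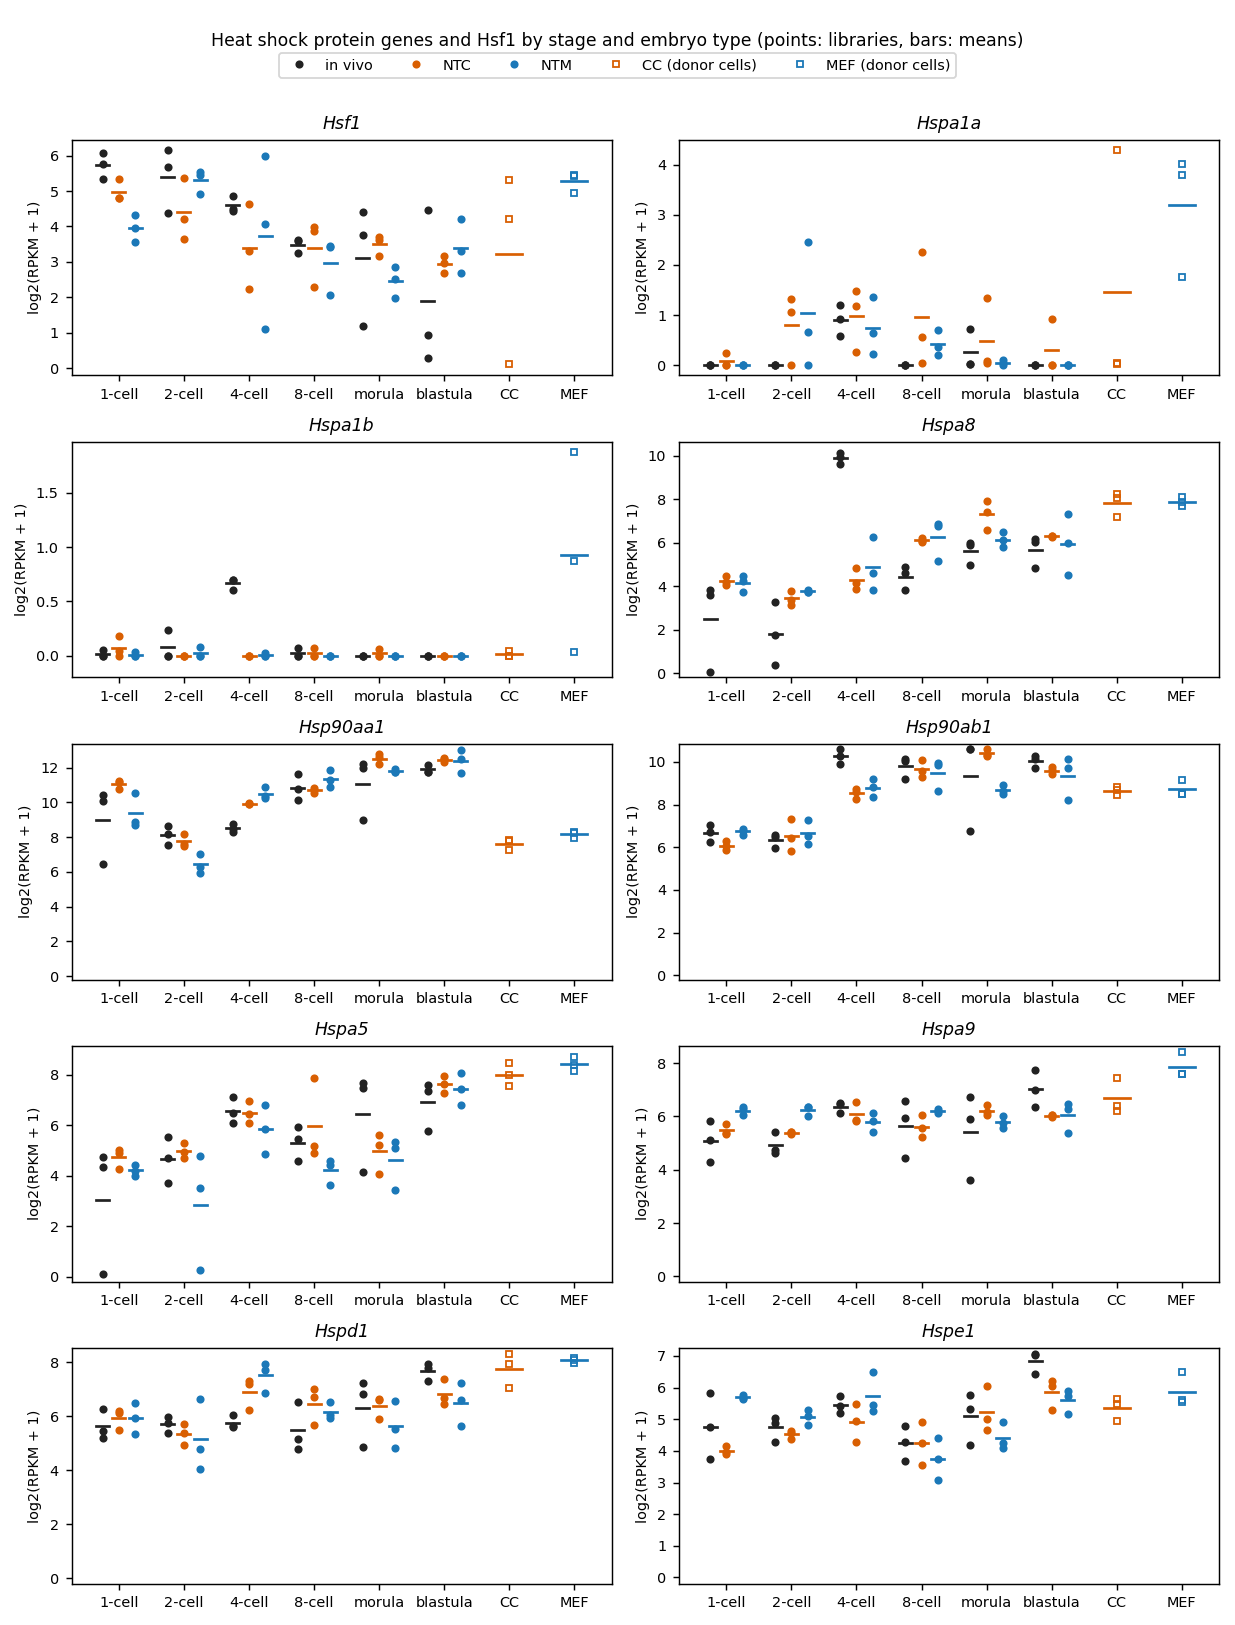
Level of each of the 10 genes, as log2(RPKM + 1), in every library by stage and embryo type, with bars at group means and open squares for donor cells. Hspa8 peaked in the in vivo 4-cell embryos, Hsp90aa1 was at its lowest in 2-cell embryos and donor cells, and Hspa1a and Hspa1b lay near 0 in nearly all embryos.

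Hsp90aa1 held the largest share of the chaperone transcripts in every embryo group except the in vivo 4-cell and NTM 2-cell embryos, where Hsp90ab1 did. Hsp90aa1 alone made up 85.0% of the summed mean RPKM of the 9 chaperone genes in NTM morulae and 90.3% in NTC 1-cell embryos. In in vivo 4-cell embryos its share was 12.7%, while Hsp90ab1 held 43.7% and Hspa8 34.0%. In the 4-cell embryos of both NT types the make-up was instead 57.7% (NTC) and 63.0% (NTM) Hsp90aa1, with Hspa8 at 1.16% and 1.60%. Among the donor cells Hsp90aa1 held 13.3% in CC and 15.3% in MEF, and Hspa8 15.9% and 12.7%.

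**Figure D2:**
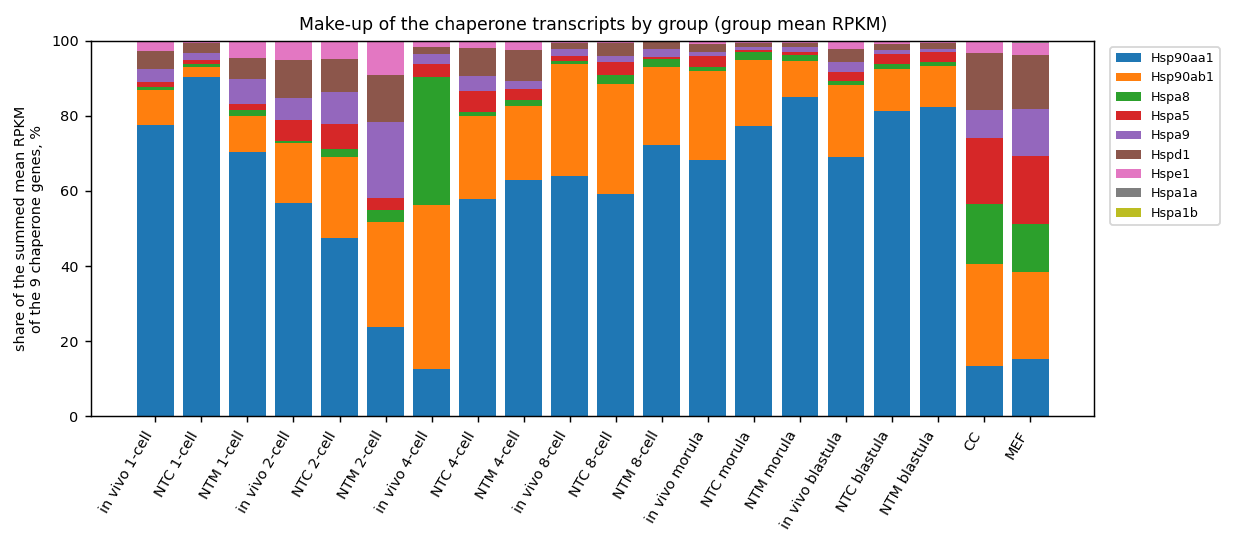
Share (%) of each chaperone gene in the summed mean RPKM of the 9 chaperone genes, one stacked bar a group. The in vivo 4-cell bar is the only embryo bar with a large Hspa8 segment (34.0%), and the Hsp90aa1 segment is small there (12.7%) and in the donor cells (13.3% and 15.3%).

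Hsf1 (chr15:76477422-76501913, plus strand; all gene positions are GENCODE M21 on GRCm38) encodes the factor that turns on heat shock genes under stress. Its highest group mean was that of in vivo 1-cell embryos and its lowest that of NTM morulae, at 4.63 ± 1.63 RPKM. In vivo 1-cell embryos were at 66.5, 39.8 and 53.7 RPKM, a mean of 53.3 ± 13.4 (SD, n = 3). In vivo 2-cell embryos were at 70.1, 50.0 and 19.7 RPKM, 4-cell embryos at 21.3, 20.5 and 28.2, and 8-cell embryos at 8.55, 11.0 and 11.3. The 8-cell values lay below every 4-cell value, and Hsf1 was called lower at that step (log2 fold change -1.11 ± 0.33 (SE), adjusted p = 0.0267). Over the same step the median of all genes tested was -1.05, and under median-ratio scaling, which moved that median to -0.16, the Hsf1 value was 0.24. With nuclear reads alone the call was lost (-0.57, adjusted p = 0.24). The call was also lost without in vivo 4-cell replicate 2 (adjusted p = 0.0535) or without in vivo 4-cell replicate 3 (adjusted p = 0.0837) or without in vivo 8-cell replicate 1 (adjusted p = 0.0567).

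At the 1-cell stage all 6 NT embryos lay below all 3 in vivo embryos in Hsf1. NTC 1-cell embryos were at 26.9, 26.7 and 39.5 RPKM and NTM 1-cell embryos at 10.8, 14.6 and 19.2, with the 3 NTM values below all NTC and in vivo values. NTM was called lower than NTC at that stage (log2 fold change -1.02 ± 0.28 (SE), adjusted p = 0.0291), a call lost without NTC 1-cell replicate 1 (adjusted p = 0.0604) or without NTC 1-cell replicate 2 (adjusted p = 0.0684) or without NTC 1-cell replicate 3 (adjusted p = 0.121) or without NTM 1-cell replicate 1 (adjusted p = 0.0757). NTC against in vivo was not called (-0.75 ± 0.34 (SE), adjusted p = 0.227), nor was NTM (-1.78 ± 0.40 (SE), adjusted p = 0.0788), which was called without in vivo 1-cell replicate 1 (-1.61, adjusted p = 0.0281). NTM 2-cell embryos were at 29.5, 42.7 and 45.7 RPKM, all above the NTM 1-cell values. That change was not called (1.35 ± 0.40 (SE), adjusted p = 0.0725), but it was called under median-ratio scaling (1.76, adjusted p = 0.0488). NTC 2-cell embryos were at 11.4, 39.9 and 17.5 RPKM, overlapping the NTC 1-cell values. Single embryos of 1 group differed widely in some groups, as in NTM 4-cell embryos at 1.17, 62.8 and 15.8 RPKM and in vivo blastulae at 21.1, 0.232 and 0.906 RPKM. CC libraries were as uneven, at 0.0928, 17.6 and 38.5 RPKM, while MEF libraries were at 29.7, 42.1 and 42.8. Along the order of its 20 group means none of the 19 neighbouring pairs had ranges that stayed apart.

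Hspa1a (chr17:34969190-34972156) and Hspa1b (chr17:34956436-34959238), both on the minus strand, encode the stress-inducible HSP70, the classic target of Hsf1. Their transcripts are 99.2% identical over 2201 aligned bases, so reads could be split between them or dropped, and the values of either gene alone are uncertain. Their RefSeq promoters (GRCm38.p6, minus strand, 250 bases before to 50 after the start) are shown because they are the best known Hsf1 targets of the set and differ at only 4 of 300 bases. Capitals mark the match to the heat shock element core, searched as GAANNTTC or TTCNNGAA on both strands, which starts 104 bases before the start in each:
Hspa1a, chr17:34972107-34972406: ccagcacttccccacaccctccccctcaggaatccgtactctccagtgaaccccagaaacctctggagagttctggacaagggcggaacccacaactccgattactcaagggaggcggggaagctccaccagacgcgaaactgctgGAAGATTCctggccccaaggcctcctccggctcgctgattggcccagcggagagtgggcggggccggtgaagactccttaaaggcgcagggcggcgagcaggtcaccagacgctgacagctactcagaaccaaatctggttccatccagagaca
Hspa1b, chr17:34959189-34959488: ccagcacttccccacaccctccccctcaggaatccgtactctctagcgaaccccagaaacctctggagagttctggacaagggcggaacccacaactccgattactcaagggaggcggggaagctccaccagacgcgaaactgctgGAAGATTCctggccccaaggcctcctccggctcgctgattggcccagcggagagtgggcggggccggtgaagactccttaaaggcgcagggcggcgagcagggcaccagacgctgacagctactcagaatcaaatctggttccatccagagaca
Of 32851 promoters of that length, 15.1% held at least 1 such core, so the match is a description of these letters. Promoters of 5 of the 10 members were in the RefSeq table, and none of Hsf1, Hspa8, Hsp90aa1, Hsp90ab1 or Hspa9 is shown.

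Neither inducible HSP70 gene reached a high level in any embryo. Hspa1a was at 0 in 25 of the 60 libraries and Hspa1b in 43, where 0 allows up to 3 reads, or 0.0488 to 0.174 RPKM of Hspa1a, counting error only. In in vivo embryos Hspa1a was at 0 in every 1-cell, 2-cell, 8-cell and blastula library, while the 4-cell embryos were at 1.31, 0.905 and 0.496 RPKM. Hspa1b had the same 4-cell pattern in in vivo embryos, at 0.624, 0.623 and 0.525 RPKM (23, 26 and 24 reads), above all other embryo libraries, of which the highest was 0.180 RPKM. Both genes were below the filter on low values in the in vivo comparisons of these stages, and the pair added up passed it only through the 4-cell embryos, so these levels are a description with no test.

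In NT embryos Hspa1a was detected unevenly and not in the 4-cell stage alone. NTC 2-cell embryos were at 0, 1.49 and 1.08 RPKM and NTM 2-cell embryos at 4.47, 0.588 and 0. NTC 4-cell embryos were at 1.80, 0.199 and 1.28 RPKM and NTM 4-cell embryos at 0.562, 0.172 and 1.55, overlapping the in vivo values, and neither NT type was called against in vivo (log2 fold change 0.07 ± 0.50 (SE), adjusted p = 0.923 for NTC, -0.16 ± 0.49 (SE), adjusted p = 0.83 for NTM). Hspa1b was at 0 in all 3 NTC 4-cell libraries and at 0, 0 and 0.0194 RPKM in NTM, below all 3 in vivo 4-cell embryos, but was under the filter and not tested. Among donor cells, MEF libraries were at 2.40, 12.9 and 15.0 RPKM of Hspa1a and CC libraries at 18.5, 0.032 and 0.0214, so a single CC library held nearly all of its group's level.

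Hspa8 (chr9:40800984-40810087, plus strand) encodes HSC70, the constitutive cytosolic HSP70 that serves protein folding, clathrin uncoating and chaperone-mediated autophagy. It had the largest rise of any member from 2-cell to 4-cell embryos in vivo, and the NT embryos differed from this by a test of the difference given with the counts. In vivo 2-cell embryos were at 2.42, 0.294 and 8.53 RPKM, a mean of 3.75 ± 4.28 (SD, n = 3). In vivo 4-cell embryos were at 791, 996 and 1137 RPKM, a mean of 974 ± 174, which placed Hspa8 between rank 41 and rank 62 of all genes in those embryos. The lowest 4-cell value was many times the highest 2-cell value, and the log2 fold change was 8.11 ± 0.69 (SE), adjusted p = 1.09e-04, 277-fold on the RPKM + 1 scale.

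The level did not last. In vivo 8-cell embryos were at 23.1, 29.0 and 13.2 RPKM, a mean of 21.8 ± 7.95, and Hspa8 then ranked between 1159 and 1883. It fell by 5.47 on the log2 scale from the 4-cell to the 8-cell stage (SE 0.32, adjusted p = 2.63e-05), with the groups far apart, and the value was -4.92 with mitochondrial genome reads left out. The morulae were at 30.3, 62.9 and 57.9 RPKM and the blastulae at 65.3, 27.2 and 71.5, still below every 4-cell embryo. Both calls held in all 13 alternatives tried for each.

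NT embryos did not show this peak. NTC 4-cell embryos were at 27.5, 13.8 and 17.0 RPKM (mean 19.4 ± 7.18) and NTM 4-cell embryos at 23.1, 13.3 and 75.5 (mean 37.3 ± 33.4). Each of these 6 embryos lay below all 3 in vivo 4-cell embryos and above every 2-cell embryo of its own type, which were at 12.9, 9.46 and 7.77 RPKM in NTC and 12.2, 13.2 and 12.3 in NTM. The 2-cell to 4-cell change was not called in NTC (log2 fold change 0.86 ± 0.45 (SE), adjusted p = 0.166) or in NTM (1.14 ± 0.72 (SE), adjusted p = 0.274). Against in vivo 4-cell embryos the log2 fold change was -5.62 ± 0.30 (SE), adjusted p = 7.47e-06 in NTC, 49.1-fold, and -5.02 ± 0.58 (SE), adjusted p = 0.00135 in NTM. With mitochondrial genome reads left out it was -5.17 in NTC and -4.52 in NTM.

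**Figure D3:**
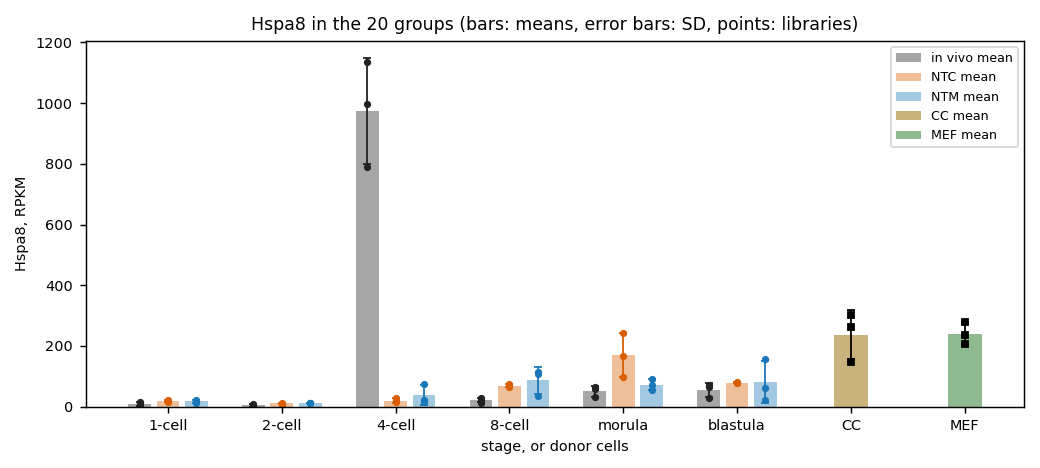
Hspa8 in RPKM in the 20 groups on a linear axis from 0, with bars at group means, error bars of 1 SD and a point for each library. The 3 in vivo 4-cell embryos sit between 791 and 1137 RPKM, while the highest other embryo, an NTC morula, is at 242 RPKM.

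At the 8-cell stage the order of embryo types was the opposite. NTC 8-cell embryos were at 73.4, 64.6 and 67.1 RPKM and NTM 8-cell embryos at 114, 108 and 35.1, all above the in vivo 8-cell values. The pooled NT embryos were called higher than in vivo embryos at that stage (log2 fold change 1.75 ± 0.42 (SE), adjusted p = 0.0377; 1 of 9 members tested, background 3.61% of all genes called, 2.54% higher). That call was lost without the libraries of replicate 1 (adjusted p = 0.25) or replicate 2 (adjusted p = 0.237), and with NTC or NTM alone. The highest NT group was the NTC morulae, at 242, 96.7 and 167 RPKM, which overlapped the donor cells, CC at 301, 264 and 146 and MEF at 277, 236 and 206. Of the 19 neighbouring pairs in the order of group means, only the in vivo 4-cell embryos and MEF had ranges that stayed apart. Hspa8 has 6 near-identical copies, 5 of them processed pseudogenes and 1 a lincRNA gene, of which the 2 in the table summed to at most 0.660 RPKM in any library, and its gene also hosts Snord14c, Snord14d and Snord14e.

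Hsp90aa1 (chr12:110690605-110702728, minus strand) encodes the inducible cytosolic HSP90, which with its cochaperones matures kinases, steroid receptors and other client proteins. It was the most abundant member in most embryo groups, and its lowest embryo levels were those of the 2-cell stage. NTC 1-cell embryos were at 1768, 2375 and 2335 RPKM and NTC 2-cell embryos at 196, 293 and 179.7. NTM embryos were at 417, 1461 and 464 RPKM at the 1-cell and 130.1, 76.9 and 61.0 at the 2-cell stage. In both types every 2-cell value lay below every 1-cell value, and Hsp90aa1 was the member called lower (log2 fold change -3.29 ± 0.22 (SE), adjusted p = 1.60e-04 in NTC; -2.94 ± 0.50 (SE), adjusted p = 0.00971 in NTM). It was 1 of 8 members tested in NTC, where 13.5% of all genes were called (8.95% lower), and 1 of 9 in NTM, where 9.4% were (6.68% lower). The NTM call was lost with no filter on low values (adjusted p = 0.0569).

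In vivo 1-cell embryos were at 86.5, 1097 and 1359 RPKM and 2-cell embryos at 291, 399 and 182. The low value was that of replicate 1, which stood apart in other genes as well. No member was called in vivo at this step: limma called 0 of 8 members tested and 0% of all genes, no member had an unadjusted p under 0.05, and the count stayed at 0 without that replicate. The difference between the NT and in vivo changes was not called for any of the 8 members either (background 0.0256% for NTC and 0.204% for NTM; 1 member with an unadjusted p under 0.05 in each).

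At the 4-cell stage NT and in vivo embryos separated. In vivo 4-cell embryos were at 313, 352 and 428 RPKM, within reach of their 2-cell level (log2 fold change 0.38 ± 0.36 (SE), adjusted p = 0.373). NTC 4-cell embryos were at 986, 946 and 965 RPKM and NTM 4-cell embryos at 1869.9, 1319 and 1225, all above every in vivo 4-cell embryo. Hsp90aa1 rose from the 2-cell stage by a log2 fold change of 2.15 ± 0.27 (SE), adjusted p = 6.15e-04 in NTC and 4.07 ± 0.44 (SE), adjusted p = 6.64e-04 in NTM. NT embryos were called higher at the 4-cell stage, at 1.42 ± 0.19 (SE), adjusted p = 7.39e-04 for NTC and 2.00 ± 0.25 (SE), adjusted p = 0.00169 for NTM, and with nuclear reads alone at 1.89 and 2.52. The NTC call against in vivo was lost in 1 fit over all 20 groups (adjusted p = 0.091).

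In vivo 8-cell embryos were at 1733, 3118 and 1115 RPKM, all above the 4-cell embryos (log2 fold change 2.33 ± 0.34 (SE), adjusted p = 0.00131; 2.91 with nuclear reads alone). NTC and NTM 8-cell embryos were at 1693, 1505 and 1805 RPKM and 3695, 1876 and 2495, and the in vivo and NT ranges overlapped. The highest group mean was that of NTC morulae, at 5962 ± 1188 RPKM (SD, n = 3), and Hsp90aa1 lay between rank 6 and rank 15 of all genes in NT embryos from the morula on. In vivo morulae were at 515, 4742 and 4079 RPKM, the low value again being the replicate with many mitochondrial reads. Over all types pooled, the 8-cell to morula change was not called (0.85 ± 0.34 (SE), adjusted p = 0.231) and was called without that library (1.19, adjusted p = 0.0106), a setting chosen after seeing the data. Donor cells held less, at 154, 217 and 223 RPKM in CC and 318, 302 and 248 in MEF. Its 3 processed copies in the table, Gm12346, Gm5844 and Gm5511, summed to at most 3.71 RPKM.

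Hsp90ab1 (chr17:45567775-45573271, minus strand) encodes the constitutive cytosolic HSP90, and it rose from the 2-cell to the 4-cell embryos in all 3 types. In vivo embryos were at 88.9, 93.2 and 61.1 RPKM at the 2-cell and 958, 1559 and 1241 at the 4-cell stage (log2 fold change 3.93 ± 0.32 (SE), adjusted p = 8.40e-05). NTC embryos went from 55.0, 159 and 87.0 to 423, 309 and 383 RPKM (2.00 ± 0.41 (SE), adjusted p = 0.00592). NTM embryos went from 153, 69.3 and 92.2 to 329, 456 and 589 RPKM (2.16 ± 0.48 (SE), adjusted p = 0.0116). The 4-cell values of both NT types lay below all 3 in vivo values. NTC was called lower than in vivo at the 4-cell stage (-1.73 ± 0.23 (SE), adjusted p = 7.85e-04; -1.26 with nuclear reads alone), and so was NTM (-1.46 ± 0.29 (SE), adjusted p = 0.0112). The NTM call was lost without in vivo 4-cell replicate 2 (adjusted p = 0.0646) or without in vivo 4-cell replicate 3 (adjusted p = 0.0568), under median-ratio scaling (-0.68, adjusted p = 0.148), and with mitochondrial genome reads left out, where the value was under the fold limit (-0.94, adjusted p = 0.0416).

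From the 8-cell stage on Hsp90ab1 stayed at a high level with overlap between types, as in 8-cell embryos at 1137, 1056 and 588 RPKM in vivo, 1091, 764 and 624 in NTC and 980.4, 931 and 397 in NTM. NTM morulae were at 486, 393 and 363 RPKM, below the NTC morulae at 1559, 1223 and 1296. In vivo morulae were at 109, 1566 and 1556 RPKM, so that replicate 1 lay below NTM and the other replicates at the NTC level. Donor cells were at 344, 457 and 416 RPKM in CC and 575, 362 and 363 in MEF.

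Hspa5 (chr2:34771970-34777547, plus strand) encodes BiP, the HSP70 of the endoplasmic reticulum, which folds secretory proteins and holds the sensors of the unfolded protein response inactive. Its RefSeq promoter (GRCm38.p6, plus strand) is shown because it held the endoplasmic reticulum stress element, searched on both strands as CCAAT and CCACG with 9 bases between, in capitals and starting 65 bases before the start:
Hspa5, chr2:34771840-34772139: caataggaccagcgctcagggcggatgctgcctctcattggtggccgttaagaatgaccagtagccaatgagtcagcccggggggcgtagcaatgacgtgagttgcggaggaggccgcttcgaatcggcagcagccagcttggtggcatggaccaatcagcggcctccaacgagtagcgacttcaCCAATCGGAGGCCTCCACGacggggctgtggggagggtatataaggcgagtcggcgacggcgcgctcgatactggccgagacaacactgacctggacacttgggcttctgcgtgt
That element was found in 0.119% of the 32851 promoters, and no heat shock element core was found in this window.

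Hspa5 rose from 2-cell to 4-cell embryos in vivo and in NTC, and between morula and blastula in both NT types, while its change from 2-cell to 4-cell NTM embryos was called under some settings and not others. In vivo embryos were at 12.1, 24.9 and 45.1 RPKM at the 2-cell and 138, 88.9 and 65.9 at the 4-cell stage (log2 fold change 1.91 ± 0.54 (SE), adjusted p = 0.0205). NTC embryos were at 24.6, 38.5 and 29.9 and 85.7, 122 and 66.6 RPKM (1.51 ± 0.39 (SE), adjusted p = 0.0157). The in vivo call was lost without in vivo 4-cell replicate 1 (adjusted p = 0.0852) or without in vivo 4-cell replicate 2 (adjusted p = 0.0688), and under median-ratio scaling (adjusted p = 0.051). In 1 fit over all 20 groups the in vivo call (adjusted p = 0.0668) and the NTC call (adjusted p = 0.181) were both lost. NTM embryos were at 26.3, 10.5 and 0.191 RPKM, with 10 reads in the lowest, and then at 56.3, 111 and 28.0. This change was not called (2.99 ± 1.12 (SE), adjusted p = 0.084). It was called in 1 fit over all 20 groups (2.99, adjusted p = 0.00513) and with the replicate number, only a name here, as a block (2.99, adjusted p = 0.0181). All 3 types overlapped at the 4-cell stage. The difference from the in vivo change was not called in NTC (adjusted p = 0.743) or NTM (adjusted p = 0.675).

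In vivo 8-cell embryos were at 59.6, 42.0 and 22.9 RPKM, a called decrease (log2 fold change -1.25 ± 0.43 (SE), adjusted p = 0.0448) that was lost on leaving out 5 of the 6 libraries in turn (adjusted p between 0.0549 and 0.153; in vivo 8-cell replicate 1 is the exception) and with nuclear reads alone (-0.69, adjusted p = 0.204), and was 0.15 under median-ratio scaling. NTC morulae were at 36.4, 48.2 and 15.8 RPKM and NTC blastulae at 245, 198 and 155. NTM morulae were at 33.2, 9.85 and 39.0 RPKM and NTM blastulae at 171, 267 and 109. In both NT types every blastula lay above every morula, and Hspa5 was the called member, with log2 fold changes of 2.65 ± 0.42 (SE), adjusted p = 0.00951 in NTC (1 of 8 tested, background 7.16% in either direction and 4.54% higher) and 2.80 ± 0.54 (SE), adjusted p = 0.0226 in NTM (1 of 8, background 4.22% and 3.73% higher). The NTC call was lost without NTC blastula replicate 1 (adjusted p = 0.0522), and the NTM call without NTM blastula replicate 1 (adjusted p = 0.11) or without NTM blastula replicate 2 (adjusted p = 0.0881) or without NTM morula replicate 2 (adjusted p = 0.0824).

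Whether the morula to blastula change differed between embryo types was not tested. In vivo morulae were at 16.9, 201 and 178 RPKM and in vivo blastulae at 192, 163 and 53.1, which overlap. There limma called 0 of 8 members (background 0.801%), with 1 member at an unadjusted p under 0.05. Without in vivo morula replicate 1, Hspa5 was called lower in NT than in vivo morulae (log2 fold change -2.78, adjusted p = 0.0484), again a setting chosen after seeing the data. With all libraries that comparison called 0 of 8 members by limma (background 0.693%; 2 members with an unadjusted p under 0.05). The donor cells had the highest levels, at 184, 253 and 347 RPKM in CC and 283, 416 and 327 in MEF.

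Hspd1 (chr1:55077835-55088243, minus strand) and Hspe1 (chr1:55088132-55091307, plus strand) encode HSP60 and HSP10, the barrel and lid of the mitochondrial chaperonin, and lie head to head with 112 shared exon bases on opposite strands. Whether the counting used strand is not given in the sources used here, so reads in those bases may belong to either gene. The Hspe1 promoter window of RefSeq (GRCm38.p6, plus strand) is shown because it holds the Hspe1 start and an inner RefSeq start of Hspd1. The window of that Hspd1 start, on the other strand, shares 285 of its 300 bases. Capitals mark a run of overlapping heat shock element cores that starts 89 bases before the Hspe1 start:
Hspe1, chr1:55087898-55088197: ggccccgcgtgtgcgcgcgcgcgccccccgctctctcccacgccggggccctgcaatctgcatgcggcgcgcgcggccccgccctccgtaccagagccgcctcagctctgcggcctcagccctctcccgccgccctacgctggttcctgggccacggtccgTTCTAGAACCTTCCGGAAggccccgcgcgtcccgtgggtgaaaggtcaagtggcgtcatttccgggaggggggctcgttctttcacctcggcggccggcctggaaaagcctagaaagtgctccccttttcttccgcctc
Within it lie matches to the longer form in which either core is followed, after 2 further bases, by GAA or TTC in alternation, which 0.603% of the 32851 promoters held. A further Hspd1 window, chr1:55088194-55088493, covers the outer end of Hspd1 at the position given above. It shares 4 bases with the Hspe1 window and held none.

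Hspd1 was not called from 2-cell to 4-cell embryos in vivo, and it was higher in NT than in vivo 4-cell embryos. In vivo embryos were at 40.3, 62.4 and 52.5 RPKM at the 2-cell and 47.2, 48.2 and 64.6 at the 4-cell stage (log2 fold change 0.05 ± 0.34 (SE), adjusted p = 0.904). NTC embryos were at 40.4, 29.5 and 51.5 and 73.7, 156 and 144 RPKM (1.56 ± 0.42 (SE), adjusted p = 0.0189), and NTM embryos at 99.6, 26.4 and 15.5 and 116, 244 and 211 (2.35 ± 0.73 (SE), adjusted p = 0.0434). The difference of this change from the in vivo change was not called in NTC (1.51 ± 0.54 (SE), adjusted p = 0.0893) or NTM (2.30 ± 0.85 (SE), adjusted p = 0.115). It was called for NTC with nuclear reads alone (adjusted p = 0.0379) and for NTM in 1 fit over all 20 groups (adjusted p = 0.0338). All 6 NT 4-cell embryos lay above the 3 in vivo ones. Against in vivo, the log2 fold change was 1.15 ± 0.34 (SE), adjusted p = 0.0339 in NTC and 1.76 ± 0.39 (SE), adjusted p = 0.0163 in NTM, and with nuclear reads alone 1.62 and 2.29.

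These Hspd1 calls were less firm than those of Hspa8 and Hsp90aa1. The rise in NTC was lost without NTC 2-cell replicate 1 (adjusted p = 0.0514) or without NTC 2-cell replicate 2 (adjusted p = 0.067) or without NTC 4-cell replicate 2 (adjusted p = 0.059) or without NTC 4-cell replicate 3 (adjusted p = 0.0623). The rise in NTM was lost without NTM 2-cell replicate 2 or 3 or any NTM 4-cell replicate (adjusted p between 0.0603 and 0.153). NTC against in vivo was lost without any in vivo 4-cell replicate or NTC 4-cell replicate 2 or 3 (adjusted p between 0.0672 and 0.116), and NTM against in vivo without in vivo 4-cell replicate 1 (adjusted p = 0.0659) or without in vivo 4-cell replicate 2 (adjusted p = 0.072). The copy Hspd1-ps3 was at 6.08 RPKM at most, with a median of 0.450.

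Hspe1 did not follow Hspd1 into the NT 4-cell embryos, which were at 18.4, 29.6 and 43.9 RPKM in NTC and 88.8, 37.5 and 43.2 in NTM, against 41.9, 35.5 and 52.5 in vivo. Neither was called (log2 fold change -0.55 ± 0.37 (SE), adjusted p = 0.305 and 0.29 ± 0.44 (SE), adjusted p = 0.669). Its firmest difference was between the NT types at the 1-cell stage. NTC 1-cell embryos were at 16.8, 14.6 and 13.9 RPKM and NTM 1-cell embryos at 52.9, 48.8 and 50.1, without overlap (1.68 ± 0.20 (SE), adjusted p = 9.57e-04), a call kept in all 13 alternatives. In vivo 1-cell embryos spanned both, at 55.6, 25.8 and 12.3 RPKM. In vivo 8-cell embryos were at 11.9, 26.6 and 18.6 RPKM, called lower than the 4-cell embryos (-1.20 ± 0.37 (SE), adjusted p = 0.0325). That call was lost on leaving out any library of the comparison but in vivo 8-cell replicate 2 (adjusted p between 0.0508 and 0.109) and with nuclear reads alone (-0.64, adjusted p = 0.233), and was 0.19 under median-ratio scaling. The highest group was the in vivo blastulae, at 84.8, 131 and 132 RPKM.

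Hspa9 encodes mortalin, the HSP70 that imports and folds mitochondrial proteins, and its embryo group means spanned the narrowest ratio of the 8 members above 1 RPKM. In vivo 2-cell embryos were at 25.5, 23.7 and 42.0 RPKM and 4-cell embryos at 68.3, 88.9 and 88.3, without overlap (log2 fold change 1.44 ± 0.36 (SE), adjusted p = 0.0127). That call was lost without in vivo 4-cell replicate 2 (adjusted p = 0.0513) or without in vivo 4-cell replicate 3 (adjusted p = 0.051). NTC embryos were at 41.7, 41.7 and 39.7 and 91.7, 57.4 and 55.2 RPKM at those stages, and NTM embryos at 80.9, 80.1 and 64.4 and 41.4, 55.8 and 68.6, neither called. The difference from the in vivo change was not called in NTC (-0.76 ± 0.50 (SE), adjusted p = 0.363) or NTM (-1.89 ± 0.58 (SE), adjusted p = 0.0584). With no filter it was called for NTM (adjusted p = 0.0308). Embryo group means ranged from 30.4 ± 10.1 RPKM in in vivo 2-cell embryos to 140.4 ± 67.2 in in vivo blastulae, and MEF libraries were at 189, 338 and 190.1.

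Counted together, the in vivo 2-cell to 4-cell step raised 4 of 8 members tested (Hspa8, Hsp90ab1, Hspa5 and Hspa9) and lowered none, against a background of 31.4% of all genes called higher, 20.8% lower and 52.2% in either direction. The median log2 fold change was 1.07 over the tested members and 0.36 over all genes. Without in vivo 4-cell replicate 2 the count was 2, and without in vivo 2-cell replicate 3 it was 5, since Hsf1 was then called lower (-1.32, adjusted p = 0.0143). In NTC 4 of 9 members were called higher (16.4% of all genes higher, 36.6% in either direction), and in NTM 3 of 9 (12.1% and 26.4%). From the 4-cell to the 8-cell stage in vivo, 1 of 8 members rose and 4 fell, where 4.4% of all genes were called higher, 39.3% lower and 43.7% in either direction. Of the 4 that fell, 3 (Hsf1, Hspa5 and Hspe1) changed sign under median-ratio scaling, while Hspa8 did not.

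The same step was compared between embryo types by testing the difference of the changes. The NTC minus the in vivo log2 change, 2-cell to 4-cell, was -7.26 ± 0.84 (SE), adjusted p = 1.53e-04 for Hspa8, -1.93 ± 0.54 (SE), adjusted p = 0.0304 for Hsp90ab1 and 1.76 ± 0.45 (SE), adjusted p = 0.0197 for Hsp90aa1. These were 3 of 9 members, where 14.3% of all genes were called (2.38% higher and 12% lower). For NTM the difference was -6.98 ± 1.03 (SE), adjusted p = 0.00137 for Hspa8 and 3.69 ± 0.55 (SE), adjusted p = 0.00151 for Hsp90aa1, 2 of 9 members with a background of 9.91% (1.86% higher and 8.05% lower). The Hspa8 difference in NTC held in all 10 alternatives. The NTC differences of Hsp90aa1 were lost without the libraries of replicate 1 (adjusted p = 0.187) or 2 (adjusted p = 0.118), and those of Hsp90ab1 without replicate 2 (adjusted p = 0.234) or 3 (adjusted p = 0.199). The Hsp90ab1 difference was also lost under median-ratio scaling (-1.54, adjusted p = 0.071) and with nuclear reads alone (-1.50, adjusted p = 0.0668). Both NTM differences were lost without replicate 1 (adjusted p = 0.0732 for Hspa8 and 0.0501 for Hsp90aa1) or 2 (adjusted p = 0.0613 and 0.0801).

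**Figure D4:**
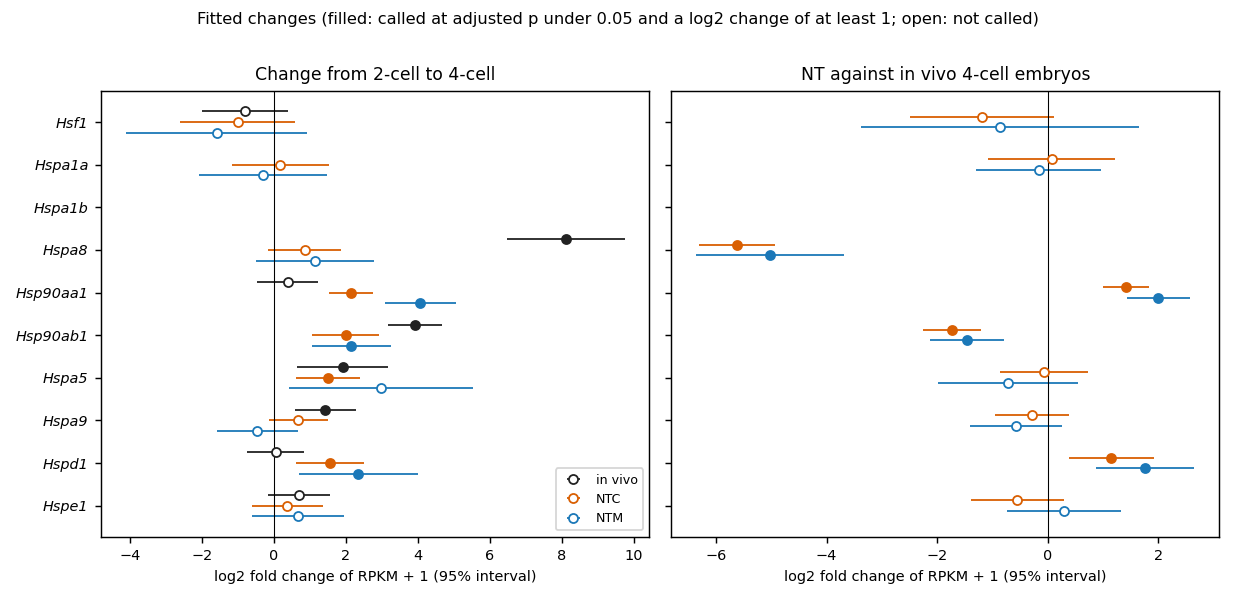
Fitted log2 fold changes of RPKM + 1 with 95% intervals, on the left from the 2-cell to the 4-cell stage in each embryo type, on the right for NT against in vivo 4-cell embryos; filled points are called, and genes under the filter have no point. Hspa8 stands apart at 8.11 in vivo on the left and at -5.62 (NTC) and -5.02 (NTM) on the right, where Hsp90aa1 lies on the other side of 0 at 1.42 and 2.00.

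At the 4-cell stage each NT type differed from in vivo embryos in the same 4 of 9 members tested: Hspa8 and Hsp90ab1 were lower, Hsp90aa1 and Hspd1 higher. The background was 27.8% of all genes for NTC (7.4% higher, 20.4% lower) and 21.1% for NTM (3.33% higher, 17.8% lower). The NTC and NTM comparisons share the in vivo libraries, so they are not independent of each other. The median of all genes was -0.39 for NTC and -0.69 for NTM, and -0.03 and -0.11 under median-ratio scaling. The fibroblast markers summed to at most 0.400 RPKM in in vivo, 0.0468 in NTC and 22.3 in NTM 4-cell embryos, and the cumulus markers to 14.2 to 19.1, 5.37 to 55.7 and 6.49 to 56.0 RPKM, with Inha and Inhba at 0 in all 3 types. Oocyte markers summed to 85.9 to 125 RPKM in in vivo, 110.2 to 214 in NTC and 74.0 to 541 in NTM 4-cell embryos, and the part of these 3 marker lists in the differences was not tested.

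At the other stages NT and in vivo embryos differed in few members. At the 1-cell stage limma called 0 of 8 members for NTC (background 1.16%; no member with an unadjusted p under 0.05) and 0 of 8 for NTM (1.28%; 2 members). Without in vivo 1-cell replicate 1 the NTM count was 2, Hsf1 as above and Hspe1 (1.45, adjusted p = 0.0404). At the 2-cell stage pooled NT embryos had 0 of 9 members called (0.338%; 3 with an unadjusted p under 0.05). At the blastula stage it was 0 of 8 for NTC (9.46%; 1 member) and 0 of 8 for NTM (0.746%; 1 member).

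Pooled NT embryos had 0 of 9 members called from the 4-cell to the 8-cell stage (background 1.92%; 6 with an unadjusted p under 0.05), Hsp90aa1 being under the fold limit at 0.81 ± 0.18 (SE), adjusted p = 0.025, and Hspa8 at 1.59 ± 0.42 (SE), adjusted p = 0.0589. Under median-ratio scaling 3 members were called at that step, Hspa8 (1.88, adjusted p = 0.0175), Hsp90ab1 (1.19, adjusted p = 0.0124) and Hsp90aa1 (1.11, adjusted p = 0.0118). All types pooled had 0 of 8 called from 8-cell to morula (1.05%; 3 members).

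Between the NT types, NTM and NTC 1-cell embryos differed in 3 of 8 members (19.8% of all genes; 5.64% higher and 14.2% lower in NTM): Hspe1 higher in NTM, Hsf1 lower, and Hsp90aa1 lower at -1.70 ± 0.42 (SE), adjusted p = 0.0199, the last call lost without NTC 1-cell replicate 2 (adjusted p = 0.0834) or without NTC 1-cell replicate 3 (adjusted p = 0.0778) or without NTM 1-cell replicate 1 (adjusted p = 0.0557) or without NTM 1-cell replicate 3 (adjusted p = 0.063). From the 2-cell stage to the blastula only the mean difference over the stages was fitted, with stage as a term. There limma called 0 of 9 members (0.19% of all genes), and 1 member, Hspa5, had an unadjusted p under 0.05. NTM against NTC at single later stages was not tested. Some ranges stayed apart, as for Hsp90ab1 in morulae (363 to 486 RPKM in NTM, 1223 to 1559 in NTC). Others overlapped, as for Hsp90ab1 in 8-cell embryos (397 to 980 and 624 to 1091). The donor cells themselves, MEF against CC, had 0 of 10 members called (6.29% of all genes; 1 member, Hspa9, with an unadjusted p under 0.05). For Hsf1 the 95% interval of that log2 difference was -0.62 to 4.74.

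Against their donor cells, 1-cell embryos were lower in most members. NTC 1-cell embryos differed from CC in 7 of 9 members tested (background 50%; 29.3% higher and 20.8% lower), with Hspa8 (-3.59 ± 0.33 (SE), adjusted p = 3.55e-04), Hspa5 (-3.26 ± 0.34 (SE), adjusted p = 5.45e-04), Hsp90ab1, Hspd1, Hspe1 and Hspa9 lower, and Hsp90aa1 higher at 3.45 ± 0.20 (SE), adjusted p = 6.56e-05. The smallest of these, Hspa9 at -1.19 ± 0.37 (SE), adjusted p = 0.0398, was lost on leaving out any of 5 of the 6 libraries, CC replicate 1 being the exception (log2 fold changes of -1.32 to -0.81, adjusted p between 0.0333 and 0.128; without CC replicate 2 only the fold limit was missed). NTM 1-cell embryos differed from MEF in 7 of 10 members (55.2% of all genes, 29.9% lower), all lower, with Hspa5 at -4.20 ± 0.25 (SE), adjusted p = 2.34e-05 and Hspa8 at -3.75 ± 0.28 (SE), adjusted p = 5.19e-05. One of the 7 is Hspa1a, which was at 0 in all 3 NTM 1-cell libraries and passed the filter only through MEF. No fold is given for it, and the count of 7 includes it by that route. Hspa1b, not called, was at 0, 0 and 0.0216 RPKM in NTM 1-cell embryos and was also tested only through MEF. In the NTC comparison Hspa1a, not called, was among the 9 tested only through CC replicate 1. Hsf1 was another of the 7 (-1.32 ± 0.32 (SE), adjusted p = 0.011). That call was lost under median-ratio scaling, where the value was under the fold limit (-0.87), and in 1 fit over all 20 groups (adjusted p = 0.238). Hsp90aa1 was not called there (1.19 ± 0.48 (SE), adjusted p = 0.0717). It was called higher under median-ratio scaling (1.65, adjusted p = 0.0164) and with the replicate number, only a name here, as a block (1.19, adjusted p = 0.0317).

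Other genes of the chaperone and stress pathways, taken from lists by function, were counted in the same fits. In vivo, 45 of 97 tested were called higher and 11 lower from the 2-cell to the 4-cell stage, with a median log2 fold change of 1.20 against 0.36 over all genes, of which 31.4% were called higher and 20.8% lower. The mitochondrial chaperones and proteases had 11 of 17 higher and none lower, the endoplasmic reticulum chaperones 8 of 18 and none lower, and the HSP70 and HSP90 cochaperones 13 of 20 higher and 2 lower. These counts include genes that passed the filter only through the 4-cell embryos, such as Clpp (mitochondrial) and Hspbp1 (cochaperone). The shares over all genes were counted under the same filter, so the counts are a description. Regulators of the unfolded protein response had 5 of 12 higher and 2 lower, other HSP70 and HSP110 genes 3 of 7 and 1, heat shock factors and their regulators 2 of 5 and 2, and cytosolic HSP40 genes 3 of 14 and 4. None of 4 small heat shock proteins was called in either direction. Of 90 tested in 8-cell against 4-cell embryos in vivo, 4 were higher and 45 lower, against 4.4% and 39.3% of all genes, with a median of all genes of -1.05.

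At the 4-cell stage NTC embryos had 11 of 96 list genes higher and 33 lower than in vivo, and NTM 5 of 94 higher and 24 lower. Over all genes 7.4% were higher and 20.4% lower in NTC, and 3.33% and 17.8% in NTM. The mitochondrial list had none of 17 higher and 9 lower in NTC, and 1 higher and 7 lower in NTM. The cochaperones had 3 of 21 higher and 8 lower in NTC, and 1 of 21 higher and 4 lower in NTM. The endoplasmic reticulum list had 2 of 18 higher and 7 lower in NTC, and none higher and 6 lower in NTM. The total of 44 in NTC was 25 without in vivo 4-cell replicate 2 and 27 without replicate 3, and the 29 in NTM were 11, 8 and 13 without in vivo 4-cell replicates 1, 2 and 3.

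**Figure D5:**
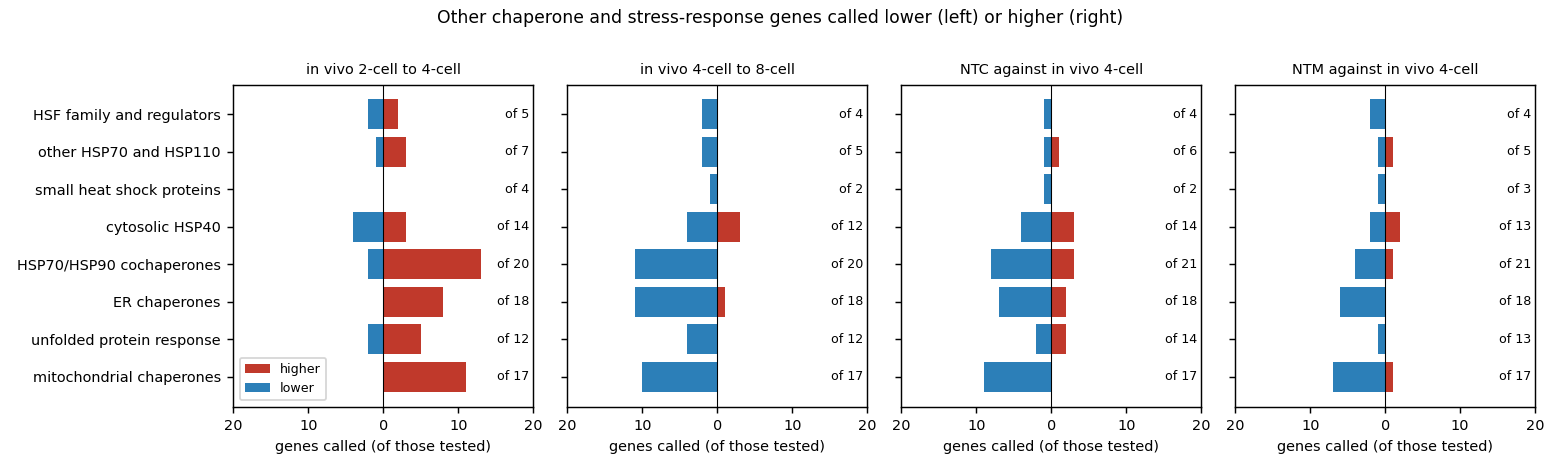
Number of list genes called lower (left of 0) and higher (right) in 8 functional lists, one panel a comparison, with the number tested at the right edge. The in vivo 2-cell to 4-cell panel points mostly right (11 of 17 mitochondrial genes higher) and the other panels mostly left (9 and 7 of 17 mitochondrial genes lower in NTC and NTM 4-cell embryos). The in vivo 2-cell to 4-cell panel counts genes, such as Clpp and Hspbp1, that passed the filter only through the 4-cell embryos.

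Among heat shock factors and their regulators, the factor gene Hsf2 was at 0.514, 0 and 1.99 RPKM in in vivo 2-cell and 4.83, 7.76 and 4.27 in 4-cell embryos, and rose (log2 fold change 1.96, adjusted p = 0.0132). Hsf5, a further member of the factor family, went the other way, from 26.0, 82.1 and 22.0 to 0.0732, 0 and 1.53 RPKM (-4.74, adjusted p = 6.73e-04). Hsbp1, whose product binds Hsf1 trimers and limits their activity, was at 61.7, 67.3 and 92.4 RPKM in in vivo 4-cell and 3.42, 7.98 and 8.30 in NTC 4-cell embryos, and was called lower in NTC (-3.36, adjusted p = 3.93e-04). In NTM it was at 39.1, 1.94 and 12.6 RPKM and was not called (adjusted p = 0.0643).

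The cofactors of HSP70 and HSP90 held some of the widest differences. Hspbp1, a nucleotide exchange factor of HSP70 picked as the largest called rise of its list in vivo, was at 0, 0 and 0.288 RPKM in in vivo 2-cell and 101, 173 and 117 in 4-cell embryos. It passed the filter at that step only through the 4-cell embryos, so no fold is given. Sugt1, an HSP90 cochaperone used in kinetochore assembly, was at 1164, 869 and 1110.4 RPKM in in vivo 4-cell embryos, at the level of Hsp90ab1. It was at 26.6, 3.42 and 13.1 RPKM in NTC and 24.8, 10.4 and 25.3 in NTM 4-cell embryos, far below (log2 fold change -6.44, adjusted p = 9.99e-05, and -5.72, adjusted p = 1.93e-04). Hspa4, an HSP110 that exchanges nucleotide on HSP70, differed the other way from Hspa8, at 21.3, 43.4 and 38.8 RPKM in in vivo and 132, 76.3 and 114 in NTC 4-cell embryos (1.63, adjusted p = 0.00946). In NTM 4-cell embryos it was at 79.5, 178 and 150.2 RPKM (1.93, adjusted p = 0.0222). Fkbp5, an HSP90 cochaperone of steroid receptors, had the largest fall of its list in vivo from 2-cell to 4-cell embryos (-4.74, adjusted p = 2.55e-04).

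Of the HSP40 genes, which deliver clients to HSP70, Dnajc21, an HSP40 of ribosome assembly, was higher in NT 4-cell embryos. It was at 39.2, 28.1 and 41.6 RPKM in vivo, 293, 135 and 242 in NTC and 329.9, 421 and 267 in NTM, with all 6 NT embryos above the in vivo ones (log2 fold change 2.54 and 3.19, adjusted p = 8.32e-04 and 9.56e-04). Dnajc9, which binds histones, had the largest rise of the list in vivo from 2-cell to 4-cell embryos (3.92, adjusted p = 5.91e-04), and Dnajb4 the largest fall (-5.54, adjusted p = 1.43e-04). Hspa4l, the paralog of Hspa4, fell there as well (-2.36, adjusted p = 0.00191). Among low genes, Hspa2, an HSP70 best known from the testis, was lower in NTC than in vivo 4-cell embryos (-1.85, adjusted p = 0.0186), and so was Hspb11 (-1.40, adjusted p = 0.0429), which despite its name works in intraflagellar transport.

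In the endoplasmic reticulum, Dnajb9, an HSP40 partner of Hspa5, was at 12.4, 32.8 and 83.6 RPKM in in vivo 2-cell and 831, 533 and 675 in 4-cell embryos (log2 fold change 4.31, adjusted p = 0.00119). NTC 4-cell embryos overlapped that level at 744, 450.0 and 989 RPKM. Sil1, the nucleotide exchange factor of Hspa5, was lower in NTC 4-cell embryos (-3.11, adjusted p = 0.00428) and in NTM (-3.02, adjusted p = 0.0229). Trib3, a pseudokinase induced in the unfolded protein response, rose in vivo from 2-cell to 4-cell embryos (2.99, adjusted p = 0.00136) and was lower in NTC 4-cell embryos (-3.29, adjusted p = 8.20e-04), while the sensor gene Ern1 fell in vivo from 2-cell to 4-cell embryos (-2.17, adjusted p = 0.00694).

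In the mitochondrion, Clpp, a protease and not a chaperone, was picked as the largest called rise of its list in vivo from 2-cell to 4-cell embryos. It was at 0.311, 0 and 0.0501 RPKM in in vivo 2-cell and 413, 339 and 254 in 4-cell embryos. Clpp passed the filter at that step only through the 4-cell embryos, so no fold is given. NTC 4-cell embryos were at 5.64, 16.8 and 15.7 RPKM and NTM 4-cell embryos at 8.00, 8.22 and 22.0, all below the in vivo embryos (log2 fold change -4.72 and -4.73, adjusted p = 9.25e-05 and 7.44e-04).

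Across the 20 group means on the log2 scale, the 10 members did not vary as 1 set. Hspa8 and Hsp90ab1 went together most with each other among the cytosolic chaperones (Pearson r = 0.741), as did Hspa5 with Hspd1 (0.774), while Hspd1 and Hspe1, the 2 subunits of 1 chaperonin, were at 0.607. Hsf1 ran opposite to Hsp90aa1 (-0.684) and Hsp90ab1 (-0.676). Of 11262 genes outside the members and lists with a mean of at least 1 RPKM, those whose group means were most like Hspa8 were Bad (r = 0.929), Atg16l2 (0.929) and Ddx1 (0.920). For Hspa1a they were Mafk (0.944), Ehd2 (0.931) and Igfbp2 (0.926), and for Hsf1 they were Gbf1 (0.896), Mapkap1 (0.894) and Psmd9 (0.885). The groups share stage and library depth, so these values are descriptions over 20 points.

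All members together took 1.02% of reads in in vivo 4-cell embryos, 0.605% in NTC and 0.845% in NTM 4-cell embryos, and 2.90% in NTC morulae, as group means. In the 3 groups of 2-cell embryos the mean was 0.132 to 0.191%, lower than in any other embryo group.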

How the data were processed

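Single-embryo and donor-cell RNA-seq libraries (60, with 3 in each of 20 groups taken from the sample labels) were analysed from 1 table of RPKM values per gene and library, deposited by the authors. Per the study's methods, adapter, redundant and poor reads were removed, and the rest were aligned with TopHat and Bowtie2 to a UCSC mouse genome and counted with HTSeq; the submitters' processing notes name Bowtie 0.12.2 and build mm8. No strand setting is given in the sources used here, and the spike-in RNA was not used here. Values scaled by exon lengths of GENCODE M21 gave whole reads (tolerance 0.01) for 20855 of 27056 genes; for Hsf1, Hspa8 and Hspa9, lengths of 2018, 4156 and 3932 bases did so. Totals of 5294167 to 47830132 reads set the precision. No column was left unmapped (0).

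The 10 members and the gene lists were chosen with earlier results of these data known. Log2(RPKM + 1) was fitted with limma 3.58.1 (R 4.3.3; trended variance) over genes with a mean of at least 0.5 RPKM in the libraries compared, in place of the pairwise count test of the study, since the deposited values are RPKM. Calls needed an adjusted p under 0.05 and a fitted difference of 1 or more on the log2 scale. Stages and types with few changes were pooled with the type or stage as a term. Alternatives were a pseudocount of 0.1, no filter, median-ratio scaling, nuclear reads only, 1 fit over all groups, the replicate number as a block, types apart and each library left out. In pooled fits and differences of changes, all libraries of 1 replicate number were left out together. A further alternative added up Hspa1a and Hspa1b, which left the values of the other members unchanged and so could hardly alter their calls. The fits were tested on simulated data. Named genes were the 10 members, in each list the called genes with the largest rise and fall in vivo at the 2-cell to 4-cell step and the largest difference of NTC from in vivo 4-cell embryos, and the 3 genes most correlated with Hspa1a, Hspa8 and Hsf1. Near-identical copies were found with blastn 2.17.0 (95% identity over 500 bases or more), and promoters were read from RefSeq.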

Additional observations from a re-analysis of the deposited data

Results flagged for a closer look

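For 3 members the change from the 2-cell to the 4-cell stage differed between NTC and in vivo embryos by a test of the difference itself (limma, log2 scale): Hspa8 by -7.26 ± 0.84 (SE, adjusted p = 1.53e-04), Hsp90ab1 by -1.93 ± 0.54 (adjusted p = 0.0304) and Hsp90aa1 by 1.76 ± 0.45 (adjusted p = 0.0197). Between NTM and in vivo embryos the same test gave -6.98 ± 1.03 for Hspa8 (adjusted p = 0.00137) and 3.69 ± 0.55 for Hsp90aa1 (adjusted p = 0.00151). The Hsp90ab1 value kept its call in 4 of 10 alternatives, and lost it, among others, under median-ratio scaling (adjusted p = 0.071) and with nuclear reads alone (adjusted p = 0.0668). The NTC value of Hsp90aa1 kept its call in 6 of 10, and both NTM values in 8 of 10. Both comparisons use the same in vivo libraries.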

How the results depend on the processing

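Counts of called members were recomputed under 412 alternatives of 33 counts, of which 353 stayed within 1.5 times the reported count, and single calls under 647 alternatives, of which 538 kept their call, 106 lost it and 3 changed sign. The 353 include counts that were 0 both as reported and in the alternative. Both totals include the sum of Hspa1a and Hspa1b, which could hardly alter other members. The 3 that changed sign were Hsf1, Hspa5 and Hspe1 from the in vivo 4-cell to the 8-cell stage under median-ratio scaling (log2 fold changes of 0.24, 0.15 and 0.19). Called members at that step (5 as reported) were 3 with no filter, and 2 each with median-ratio scaling, nuclear reads only and 1 fit over all 20 groups. With no filter the counts were 0 for NTC morula to blastula, NTM 1-cell to 2-cell, NTM morula to blastula and NT against in vivo 8-cell, and 1 for NTM against NTC 1-cell and for the NTC difference of the 2-cell to 4-cell change. With median-ratio scaling they were 2 for NTC morula to blastula and for NTM 1-cell to 2-cell, 3 for NT 4-cell to 8-cell, 1 for NTC against in vivo blastula, 0 for NT against in vivo 8-cell, and 18 list genes for NTM against in vivo 4-cell. In 1 fit over all 20 groups they were 2 for in vivo morula to blastula, 0 for NTC and for NTM morula to blastula, 2 for NT 4-cell to 8-cell, 1 for NTC against in vivo 1-cell, 2 members and 26 list genes for NTC against in vivo 4-cell, 0 for NT against in vivo 8-cell, and 1 for NTM against NTC 1-cell and for the NTC difference of changes. Nuclear reads only gave 2 for NT 4-cell to 8-cell, and NTC or NTM alone 0 for NT against in vivo 8-cell. The cause of these shifts was not tested.

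Leaving out 1 library from a pair of groups gave 2 to 5 called members for in vivo 2-cell to 4-cell (43 to 58 list genes). It gave 2 to 4 for in vivo 4-cell to 8-cell, and 0 to 2 for NTC and for NTM morula to blastula and for NTM against in vivo 1-cell. For NTC against in vivo 4-cell it gave 3 to 4 (25 to 44 list genes) and for NTM 2 to 4 (8 to 41 list genes). NTC and NTM 2-cell to 4-cell had 3 to 4 and 2 to 3, and NTM against NTC 1-cell had 1 to 3. Pooled comparisons were instead refitted without all libraries of 1 replicate number and, where they hold in vivo morulae, without in vivo morula replicate 1. That gave 0 to 1 for all types 8-cell to morula and for NT against in vivo 8-cell and morula. The NTC and NTM differences of the 2-cell to 4-cell change had 1 to 2 and 0 to 2 without the libraries of 1 replicate number. In vivo morula replicate 1 alone, left out after seeing the data, gave 1 call each for all types 8-cell to morula and NT against in vivo morula.

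Replicate numbers are only names here: in 0 of 20 pairs of groups did all 3 same-numbered samples correlate over 0.1. With the replicate number as a block the in vivo 4-cell to 8-cell count was 3, and no other count moved by over 1.5 times. Deeper donor libraries and 3 embryos a group limit what could be detected for Hspa1a and Hspa1b, whose embryo values rest on few reads.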
